A study of Mus musculus with 20 samples.

Results

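The genes described here are 33. Most carry long-chain fatty acids into mitochondria, oxidise fatty acids there or handle the ketone bodies made from the product. Some are related dehydrogenases that act on branched-chain amino acids. The 33 were chosen by name among the 53599 gene symbols counted, and all had a row. Of these, 32 had enough counts to be tested. The exception was Cpt1b, the muscle form of the outer carnitine palmitoyltransferase, which stayed below 0.6 CPM (counts scaled to library size with TMM factors) in every library. A same-strand gene shares 81.4% of the Cpt1b exons in the GENCODE M21 annotation, so the Cpt1b count is uncertain. The core enzymes of peroxisomal oxidation are not among the 33.

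RNA came from bulk liver of mice of both sexes, either without PPARα (knockout, KO) or with a human PPARα transgene (hPPARa). For 6 to 7 weeks after weaning they drank PFOA (perfluorooctanoic acid, a long-lived fluorochemical) at 8 µM or vehicle, each in water with 0.5% sucrose. In every group the diet gave 33.5% of energy from fat, 51.8% from carbohydrate and 14.7% from protein. There were 6 KO libraries on PFOA (3 female, 3 male), 4 KO libraries on vehicle (1 female, 3 male), 5 hPPARa libraries on PFOA (2 female, 3 male) and 5 hPPARa libraries on vehicle (3 female, 2 male). Neither the promoter that drives the transgene nor the state of the mouse receptor gene in these mice is stated in the labels. No label ties each library to its own mouse, so p-values reflect only how far these samples spread, and that spread may be technical.

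Total counts ran from 14973673 to 17953860 per library. The count tables were deposited separately for each genotype, so genotype and count table cannot be told apart. In 3 KO libraries, transcripts of the other sex were counted. Ddx3y, a gene of the Y chromosome, had 4.06 CPM in KO female PFOA replicate 2 and 1.86 CPM in KO female vehicle replicate 1, against at most 0.415 CPM in the other female libraries. Xist, the RNA of the inactive X chromosome, had 30.8 CPM in KO male PFOA replicate 2, against at most 4.40 CPM in the other male libraries. For the calls, and for values that they move far, results are given with and without these libraries, and without them the KO vehicle group holds males only. Counts under the symbol Ppara, the deleted gene, ran from 8.42 to 25.1 CPM on PFOA and from 19.9 to 22.2 CPM on vehicle in KO livers, against 21.2 to 39.6 CPM on PFOA and 16.9 to 27.0 CPM on vehicle in hPPARa livers. A count per symbol does not show which part of the gene it came from and so does not check the deletion.

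Mitochondrial β-oxidation shortens an activated fatty acid by repeated rounds of the same steps. Long chains enter as carnitine esters, an acyl-CoA dehydrogenase takes the first electrons, hydration and a second oxidation follow, and thiolysis releases acetyl-CoA. In fasted liver much of that acetyl-CoA is exported as ketone bodies. PPARα is a nuclear receptor that binds fatty acids and is known to switch on many of these genes in liver.

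With PFOA, many of the pathway's transcripts rose in both genotypes, and the fold change was higher in hPPARa than in KO livers for 30 of 32 genes. Among the 32 tested genes, 12 rose and 0 fell in KO livers, and 22 rose and 0 fell in hPPARa livers, at an adjusted p under 0.05 in edgeR's quasi-likelihood test. Among all genes tested, 7.41% were called higher and 6.36% lower in KO (15334 tested), and 12.8% higher and 9.76% lower in hPPARa (14400 tested). In KO the PFOA libraries lay wholly above the vehicle libraries for 13 of the 32 genes and wholly below for 2, against 5.67% and 3.97% of all genes, and in hPPARa for 21 and 0 genes, against 8.64% and 5.67%. The median log2 fold change of the 32 genes was 0.18 in KO livers and 0.76 in hPPARa livers, where the median of all genes was −0.02 and −0.01. In bulk liver, fewer cells of a type and less RNA per cell, cannot be told apart. All 12 genes that rose in KO were among the 22 that rose in hPPARa. With the 3 KO libraries left out, the count in KO was 7 genes, all of them higher: Slc25a20, Slc22a5, Slc25a34, Cpt2, Acadl, Eci1 and Decr1.

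The summed counts of the 33 genes took 0.541% to 0.568% of the counts of a library in KO livers on PFOA, with a median of 0.557%. They took 0.452%, 0.457%, 0.480% and 0.520% in KO livers on vehicle. In hPPARa livers they took 0.785%, 0.874%, 0.884%, 0.900% and 0.917% on PFOA, against 0.496%, 0.506%, 0.507%, 0.536% and 0.567% on vehicle. The libraries of the exposures did not overlap in either genotype, and the KO libraries on PFOA lay within the upper part of the hPPARa vehicle range or just above it.

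**Figure D1:**
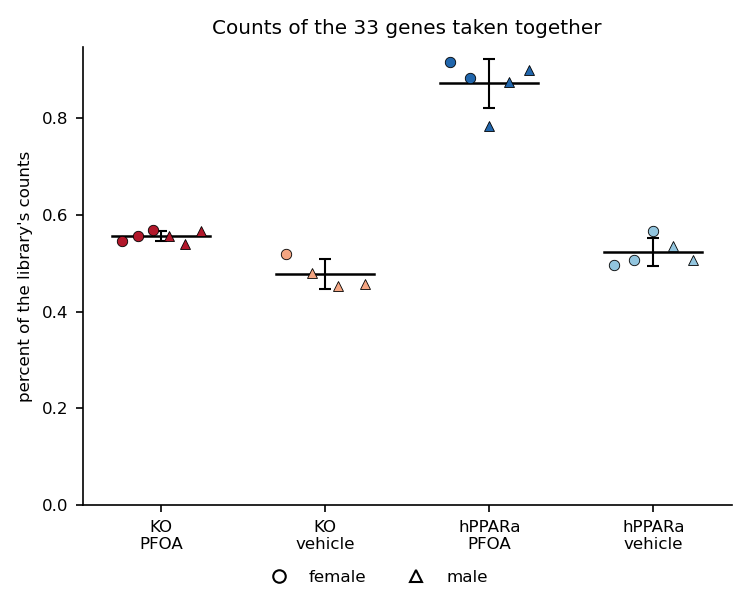
Share of each library's counts (percent) taken by the 33 genes together, by genotype and drinking water. Points are libraries (circles female, triangles male), with the mean and SD; all 5 hPPARa libraries on PFOA sit between 0.785% and 0.917%, above every other library.

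The first group of genes moves fatty acids across the mitochondrial membranes as carnitine esters. Slc22a5 brings carnitine into the cell, Cpt1a and Cpt1b make acylcarnitine at the outer membrane, Slc25a20 exchanges acylcarnitine for carnitine across the inner membrane, and Cpt2 remakes acyl-CoA inside. Mlycd, malonyl-CoA decarboxylase, removes the inhibitor of the outer enzyme, and Slc25a34 is an inner-membrane carrier of the same family whose cargo is less well known. With PFOA, 4 of the 6 tested genes rose in KO livers and 5 of 6 rose in hPPARa livers. The exceptions were Cpt1a in both genotypes and Mlycd in KO.

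Slc25a20 had 52.2 CPM at the lowest, a median of 57.8 CPM and 62.7 CPM at the highest in the 6 KO libraries on PFOA, against 18.7, 24.3, 25.0 and 26.9 CPM on vehicle. In hPPARa livers Slc25a20 had 165, 177, 180, 185 and 188 CPM on PFOA, against 73.1, 73.5, 86.5, 87.8 and 89.5 CPM on vehicle. The 4 sets of libraries did not overlap, and every KO library on PFOA was below every hPPARa library on vehicle. With PFOA the log2 fold change was 1.27 ± 0.11 (SE; adjusted p = 1.23e-05) in KO and 1.12 ± 0.09 (adjusted p = 4.05e-06) in hPPARa, both by edgeR. The difference of these effects was 0.16 with a 95% interval of −0.11 to 0.43 and did not pass the threshold (adjusted p = 0.655, edgeR). Without the 3 KO libraries the effect in KO was 1.42 (adjusted p = 5.67e-04, edgeR).

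Slc22a5, the carnitine importer, had 21.2 to 26.3 CPM with a median of 23.3 CPM in KO livers on PFOA, against 5.43, 8.11, 8.41 and 15.8 CPM on vehicle. In hPPARa livers Slc22a5 had 36.3, 45.9, 46.5, 52.6 and 57.6 CPM on PFOA, against 14.0, 16.0, 16.3, 16.9 and 17.5 CPM on vehicle. PFOA libraries lay above vehicle libraries in each genotype, and the highest KO vehicle library, the lone female, was 1 of the 3 libraries with transcripts of the other sex. The log2 fold changes were 1.25 ± 0.19 (adjusted p = 0.00172) in KO and 1.52 ± 0.12 (adjusted p = 1.97e-06) in hPPARa, by edgeR.

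Slc25a34 had the lowest level of the carriers per kilobase of exon. It had 2.33 to 4.22 CPM with a median of 2.99 CPM in KO livers on PFOA, against 0.442, 0.467, 0.811 and 1.45 CPM on vehicle. The KO vehicle values rest on few counts, at 7, 7, 12 and 28. The 28 came from the lone female, 1 of the 3 libraries with transcripts of the other sex. In hPPARa livers Slc25a34 had 6.35, 7.84, 8.43, 8.61 and 9.94 CPM on PFOA, against 3.15, 4.35, 4.51, 5.11 and 5.53 CPM on vehicle. Its PFOA effect was the highest of the 32 in KO livers, 1.80 ± 0.25 on the log2 scale (adjusted p = 5.25e-04), and 0.86 ± 0.18 (adjusted p = 0.00369) in hPPARa livers, both by edgeR. The KO effect exceeded the hPPARa effect by 0.93 with a 95% interval of 0.36 to 1.5, but that difference did not pass the threshold over all genes (adjusted p = 0.13, edgeR). Slc25a34 and Slc25a20 were the only 2 of the 32 genes whose PFOA effect was larger in KO than in hPPARa, and neither difference passed. Without the 3 KO libraries the differences for Slc22a5, at 0.15 (adjusted p = 0.881, edgeR), and Cpt1a, at 0.30 (adjusted p = 0.811), were also above 0.

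Cpt2 had 77.8 to 98.9 CPM with a median of 87.6 CPM in KO livers on PFOA, against 52.7, 58.0, 58.0 and 71.3 CPM on vehicle. In hPPARa livers Cpt2 had 234, 258, 259, 262 and 276 CPM on PFOA, against 119, 121, 121, 131 and 155 CPM on vehicle. No KO library reached the lowest hPPARa library. The log2 fold changes with PFOA were 0.50 ± 0.09 (adjusted p = 0.00346) in KO and 0.98 ± 0.10 (adjusted p = 1.64e-05) in hPPARa, by edgeR, and their difference of −0.48 had an adjusted p of 0.0749.

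Mlycd had 86.9 to 108 CPM with a median of 99.8 CPM in KO livers on PFOA, against 65.9, 74.3, 87.0 and 96.3 CPM on vehicle. In hPPARa livers Mlycd had 137, 138, 139, 142 and 145 CPM on PFOA, against 102, 104, 113, 122 and 125 CPM on vehicle. The KO exposures overlapped and the hPPARa exposures did not. Its rise in hPPARa was the smallest called, 0.30 ± 0.09 on the log2 scale (adjusted p = 0.0245, edgeR), and that call was lost without hPPARa male vehicle replicate 2, female PFOA replicate 1 or female PFOA replicate 2 (adjusted p = 0.0857, 0.0810 and 0.0632, edgeR). In KO the log2 fold change was 0.25 ± 0.11 (adjusted p = 0.138), and it passed only without KO male vehicle replicate 1 (adjusted p = 0.0302).

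Cpt1a, the liver form of the outer enzyme and the step at which entry is known to be controlled, did not pass the threshold in any main comparison. With no filter on low counts, Cpt1a passed as higher in KO males (0.48, adjusted p = 0.00418, edgeR). It had 346 to 683 CPM with a median of 400 CPM in KO livers on PFOA, against 289, 399, 409 and 768 CPM on vehicle. In hPPARa livers Cpt1a had 361, 466, 467, 584 and 614 CPM on PFOA, against 309, 397, 400, 450 and 477 CPM on vehicle. All 4 sets overlapped. PFOA over vehicle, the log2 fold change was −0.08 with a 95% interval of −0.65 to 0.48 in KO and 0.28 with an interval of −0.03 to 0.59 in hPPARa. The sign in KO rested on KO female vehicle replicate 1, the library at 768 CPM. Cpt1a had 0.48 in KO without that library (adjusted p = 0.153, edgeR) and 0.58 without the 3 KO libraries (adjusted p = 0.197).

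**Figure D2:**
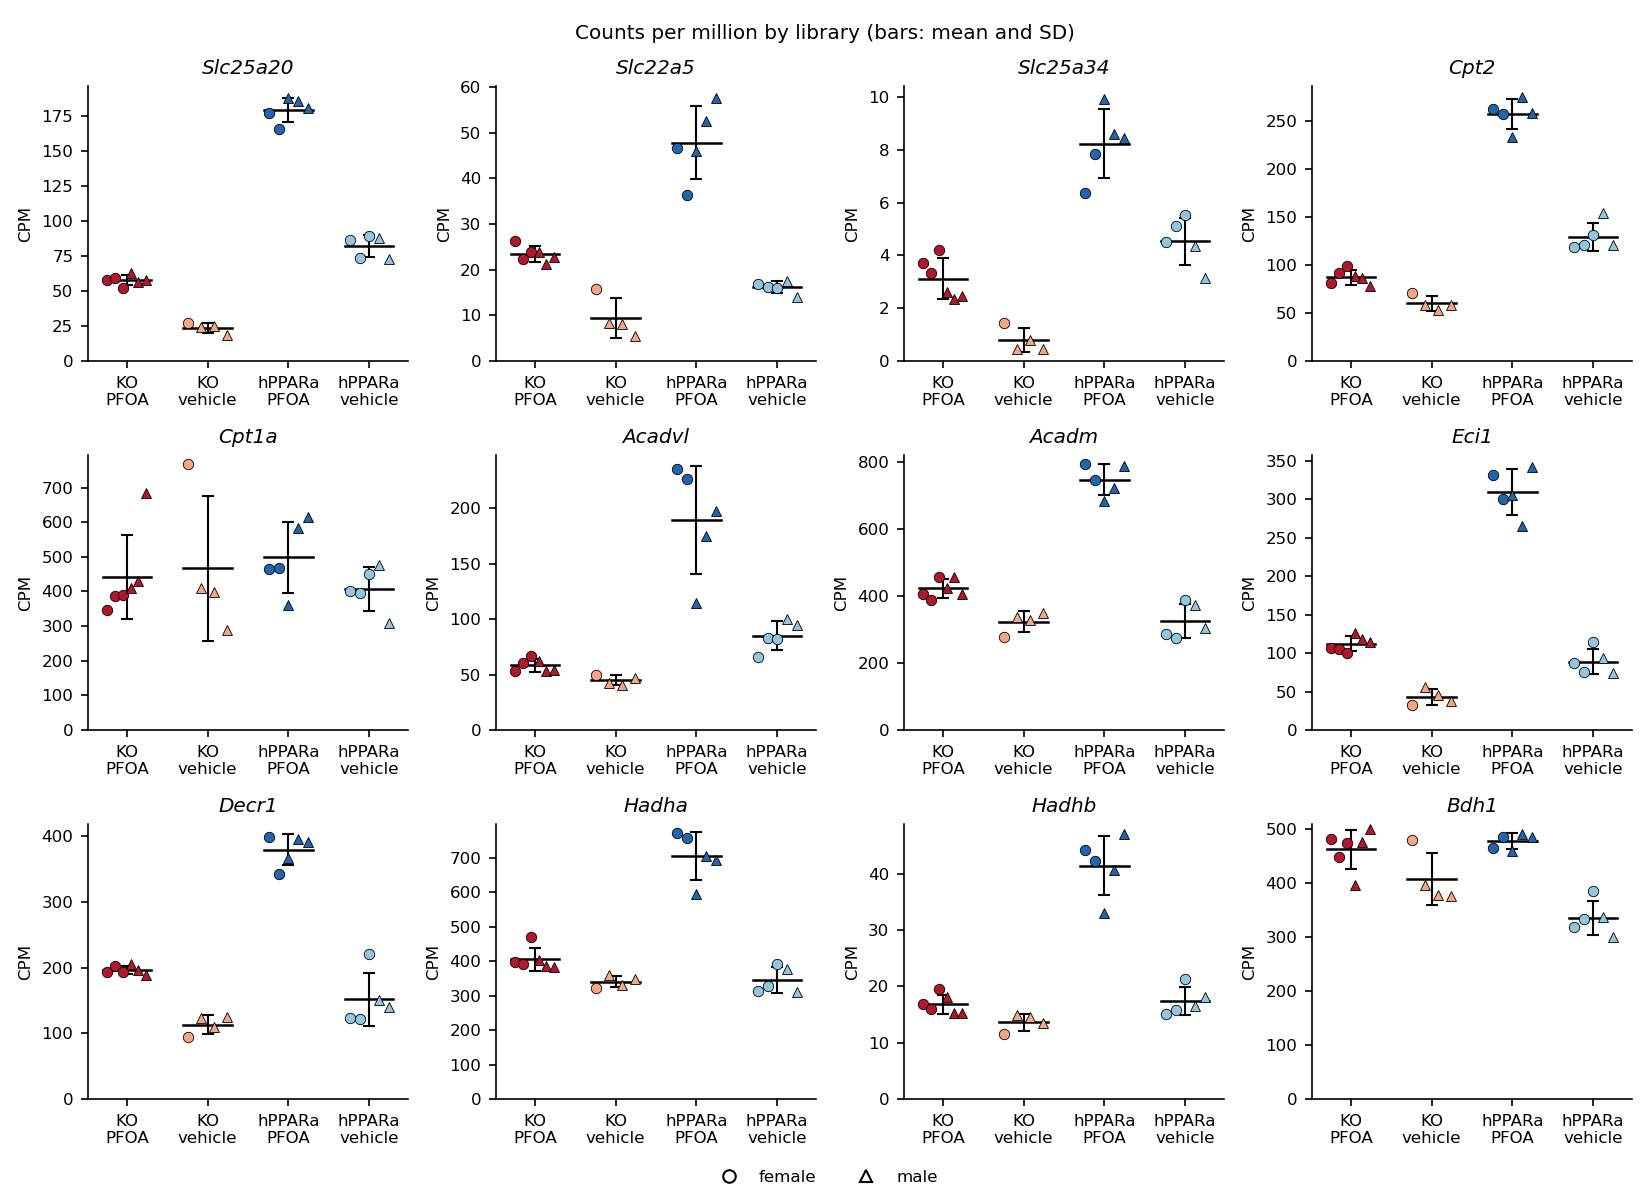
CPM of 12 of the genes in every library, by genotype and drinking water. Points are libraries (circles female, triangles male), with the mean and SD. Slc25a20 and Cpt2 in KO livers on PFOA lie below hPPARa livers on vehicle, Hadha and Hadhb are set apart in hPPARa livers on PFOA, and Cpt1a overlaps in all 4 sets.

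The straight-chain acyl-CoA dehydrogenases take the first step, each on its own range of chain lengths: Acadvl on very long, Acadl on long, Acadm on medium and Acads on short chains. With PFOA, 3 of the 4 rose in KO livers (Acadl, Acadm and Acadvl) and all 4 rose in hPPARa livers. Log2 fold changes ran from 0.19 for Acads to 0.86 for Acadl in KO, and from 0.66 for Acads to 1.19 for Acadm in hPPARa.

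Acadm had 390 to 459 CPM with a median of 416 CPM in KO livers on PFOA, against 279, 329, 338 and 349 CPM on vehicle. In hPPARa livers Acadm had 685, 722, 748, 790 and 796 CPM on PFOA, against 276, 286, 306, 373 and 388 CPM on vehicle. The vehicle libraries of the genotypes overlapped, whereas on PFOA every KO library was below every hPPARa library. The log2 fold changes were 0.42 ± 0.10 (adjusted p = 0.0112) in KO and 1.19 ± 0.12 (adjusted p = 1.40e-05) in hPPARa, by edgeR. The KO call was lost without KO female vehicle replicate 1 (adjusted p = 0.0596) and without the 3 KO libraries (0.30, adjusted p = 0.242).

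Acadvl had 53.1 to 66.5 CPM with a median of 57.2 CPM in KO livers on PFOA, against 41.0, 42.3, 47.1 and 50.1 CPM on vehicle. In hPPARa livers Acadvl had 114, 175, 198, 226 and 236 CPM on PFOA, against 65.9, 82.0, 83.2, 95.0 and 100 CPM on vehicle. The exposures did not overlap in either genotype. In KO the log2 fold change was 0.34 ± 0.09 (adjusted p = 0.0271, edgeR), a call lost without any 1 of 5 libraries (KO male vehicle replicates 1 and 2, KO male PFOA replicates 1 and 2, KO female vehicle replicate 1; adjusted p = 0.0503 to 0.0763) and without the 3 KO libraries (adjusted p = 0.128). It was also lost with all 20 libraries in 1 fit (adjusted p = 0.154), with equal weight of the sexes (adjusted p = 0.0516) and with the replicate block (adjusted p = 0.0550). In hPPARa it was 1.16 ± 0.18 (adjusted p = 0.00103, edgeR). Exons of Dvl2, on the opposite strand, cover 42.9% of the Acadvl exons in the GENCODE M21 annotation, and no label states the strand setting of the counts. Dvl2 itself was counted at 5.05 to 10.6 CPM.

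Acadl rose by 0.86 ± 0.12 on the log2 scale in KO (adjusted p = 5.97e-04) and by 1.13 ± 0.11 in hPPARa (adjusted p = 1.14e-05, edgeR). Its KO libraries on PFOA, at 215 to 277 CPM, overlapped the hPPARa libraries on vehicle, at 172 to 254 CPM.

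Of the 6 branched-chain and other acyl-CoA dehydrogenases, 1 rose in KO livers (Acad11) and 3 rose in hPPARa livers (Acad9, Acad10 and Acad11). Acad9 also serves in the assembly of respiratory complex I, while Ivd, Acad8 and Acadsb act in the breakdown of leucine, valine and isoleucine. Acad9 lost its call without hPPARa female PFOA replicate 2 (adjusted p = 0.0507), and Acad11 in KO without the 3 KO libraries (adjusted p = 0.128). Acad10 had a log2 fold change of 0.10 ± 0.16 in KO (adjusted p = 0.708) and of 1.22 ± 0.19 in hPPARa (adjusted p = 0.00115, edgeR). Its KO value was 0.24 without the 3 KO libraries (adjusted p = 0.605). The enzymes of branched-chain amino acid breakdown did not pass the threshold in either genotype, with log2 fold changes of −0.27 to −0.07 in KO livers and of −0.25 to 0.45 in hPPARa livers. Without the 3 KO libraries the KO values were −0.55 for Acadsb, −0.22 for Ivd and −0.19 for Acad8, none past the threshold, and without KO female vehicle replicate 1 alone Acadsb passed as lower (−0.50, adjusted p = 0.0191). In hPPARa, Ivd passed as higher in 6 alternatives, DESeq2 among them (adjusted p = 3.65e-04 to 0.0444), and Acad8 in 3 (adjusted p = 0.0318 to 0.0482). Within males alone, Acadsb fell by 0.49 in KO (adjusted p = 0.0203) and by 0.49 in hPPARa (adjusted p = 0.0428, edgeR). The call in KO males was lost without KO male vehicle replicate 1 or 2, KO male PFOA replicate 1 or 3 (adjusted p = 0.0510 to 0.0876) or the 3 KO libraries (adjusted p = 0.0589). That in hPPARa males was lost without any 1 of 7 libraries, with the highest adjusted p, 0.379, without hPPARa male vehicle replicate 2.

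The steps that follow are run on long chains by the mitochondrial trifunctional protein, whose alpha subunit is encoded by Hadha and whose beta subunit, which carries the thiolase, is encoded by Hadhb. Echs1, Hadh and Acaa2 are the soluble hydratase, dehydrogenase and thiolase for shorter chains. None of these 5 genes passed the threshold in KO livers by edgeR, where 2 had an unadjusted p under 0.05 and DESeq2 called Hadha (adjusted p = 0.0377). With equal weight of the sexes, edgeR called Hadhb in KO (0.38, adjusted p = 0.0385). In hPPARa livers 4 of the 5 rose, all but Echs1.

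Hadha had 383 to 470 CPM with a median of 395 CPM in KO livers on PFOA, against 322, 332, 348 and 359 CPM on vehicle. In hPPARa livers Hadha had 595, 692, 705, 757 and 773 CPM on PFOA, against 312, 313, 327, 378 and 392 CPM on vehicle. The exposures did not overlap in either genotype. On vehicle the genotypes overlapped, and on PFOA no KO library reached the lowest hPPARa library. The log2 fold change with PFOA was 0.24 ± 0.10 (adjusted p = 0.106) in KO and 1.05 ± 0.11 (adjusted p = 2.08e-05) in hPPARa, by edgeR.

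Hadhb had 15.2 to 19.6 CPM with a median of 16.4 CPM in KO livers on PFOA, against 11.5, 13.6, 14.7 and 14.9 CPM on vehicle. In hPPARa livers Hadhb had 33.1, 40.6, 42.3, 44.2 and 47.1 CPM on PFOA, against 15.2, 15.9, 16.5, 18.2 and 21.3 CPM on vehicle. The exposures did not overlap in either genotype, and KO livers on PFOA overlapped hPPARa livers on vehicle. The Hadhb effect was 0.31 ± 0.11 (adjusted p = 0.0858) in KO and 1.26 ± 0.12 (adjusted p = 9.54e-06) in hPPARa on the log2 scale, by edgeR. The subunits are known to form 1 complex, yet Hadhb was counted far below Hadha. In CPM per kilobase of exon, on hPPARa vehicle, Hadhb had 2.64 ± 0.37 and Hadha 39.4 ± 4.34 (SD, n = 5). The level of Hadhb is uncertain on this account, and whether its change with PFOA is affected was not tested.

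Eci1 and Decr1 prepare unsaturated fatty acids for the same steps, by moving or reducing a double bond. Both rose in both genotypes. Eci1 had 99.8 to 126 CPM with a median of 111 CPM in KO livers on PFOA, against 32.0, 38.4, 45.9 and 56.3 CPM on vehicle. In hPPARa livers Eci1 had 266, 300, 305, 332 and 342 CPM on PFOA, against 74.3, 75.6, 86.6, 93.8 and 115 CPM on vehicle. The exposures did not overlap in either genotype, and KO livers on PFOA overlapped hPPARa livers on vehicle. For Eci1 the log2 fold change was 1.47 ± 0.12 (adjusted p = 8.07e-06) in KO and 1.81 ± 0.13 (adjusted p = 9.56e-07) in hPPARa, by edgeR, the highest of the 32 in hPPARa.

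Decr1 had 189 to 206 CPM with a median of 195 CPM in KO livers on PFOA, against 93.7, 109, 124 and 125 CPM on vehicle. In hPPARa livers Decr1 had 343, 367, 391, 397 and 400 CPM on PFOA, against 123, 124, 140, 151 and 221 CPM on vehicle. The exposures did not overlap in either genotype, and the vehicle libraries of KO and hPPARa overlapped only at their edge. For Decr1 the log2 fold change was 0.84 ± 0.09 (adjusted p = 1.30e-04) in KO and 1.33 ± 0.15 (adjusted p = 5.11e-05) in hPPARa, by edgeR.

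The electrons of the first step pass through the electron transfer flavoprotein (Etfa, Etfb) to its dehydrogenase in the inner membrane (Etfdh). Only the membrane dehydrogenase rose, by 0.48 ± 0.09 on the log2 scale in KO (adjusted p = 0.00476) and by 1.34 ± 0.21 in hPPARa (adjusted p = 9.24e-04, edgeR), and its KO call was lost without the 3 KO libraries (adjusted p = 0.115) and with all 20 libraries in 1 fit (adjusted p = 0.0663). Etfa had log2 fold changes of −0.28 ± 0.09 in KO (adjusted p = 0.0548) and −0.02 ± 0.10 in hPPARa (adjusted p = 0.931). Etfa in KO passed, as lower, by DESeq2 (adjusted p = 0.0101), and by edgeR without KO female PFOA replicate 3 or KO female vehicle replicate 1 (adjusted p = 0.0467 and 0.0274). Etfb had 0.11 ± 0.09 in KO (−0.01 without the 3 KO libraries) and 0.15 ± 0.12 in hPPARa. In KO livers all 6 PFOA libraries of Etfa, at 147 to 163 CPM, lay below the 4 vehicle libraries, at 164 to 206 CPM. A same-strand gene shares 58.2% of the Etfb exons in the GENCODE M21 annotation, so its count is uncertain.

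Among the ketone body enzymes, Acat1 joins acetyl-CoA units, Bdh1 interconverts the ketone bodies, and Oxct1 uses them in other tissues and is known to be nearly silent in liver. Bdh1 was the only 1 of the 3 to rise, in hPPARa livers. It had 396 to 499 CPM with a median of 475 CPM in KO livers on PFOA, against 375, 378, 396 and 479 CPM on vehicle. In hPPARa livers Bdh1 had 458, 464, 485, 485 and 491 CPM on PFOA, against 299, 319, 332, 337 and 384 CPM on vehicle. The Bdh1 log2 fold change was 0.16 ± 0.10 (adjusted p = 0.337) in KO and 0.52 ± 0.09 (adjusted p = 0.00164) in hPPARa, by edgeR, and the difference of −0.37 did not pass (adjusted p = 0.187). The hPPARa exposures did not overlap and the KO exposures did, and on PFOA the genotypes overlapped. Acat1 had −0.13 in KO (adjusted p = 0.561) and 0.39 in hPPARa (adjusted p = 0.136, edgeR). In hPPARa it passed as higher with no filter on low counts (adjusted p = 0.00651) and without hPPARa female vehicle replicate 3 (0.55, adjusted p = 0.0101). Oxct1 stayed at 2.68 to 5.89 CPM in all libraries. Its value in KO was −0.43 (adjusted p = 0.0943, edgeR), and it passed as lower with equal weight of the sexes (−0.51).

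Acsf2, an acyl-CoA synthetase of medium chains, rose in both genotypes, by 0.59 ± 0.11 on the log2 scale in KO (adjusted p = 0.00319) and by 1.14 ± 0.12 in hPPARa (adjusted p = 2.31e-05, edgeR), and its KO call was lost without the 3 KO libraries (adjusted p = 0.0744). Acot9, a mitochondrial thioesterase, had log2 fold changes of 0.06 ± 0.24 in KO (adjusted p = 0.896) and 0.95 ± 0.16 in hPPARa (adjusted p = 0.00114, edgeR) at a level of 1.42 to 5.34 CPM. Its KO value was 0.52 without the 3 KO libraries (adjusted p = 0.397). Acot13, another thioesterase, did not pass in either genotype.

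**Figure D3:**
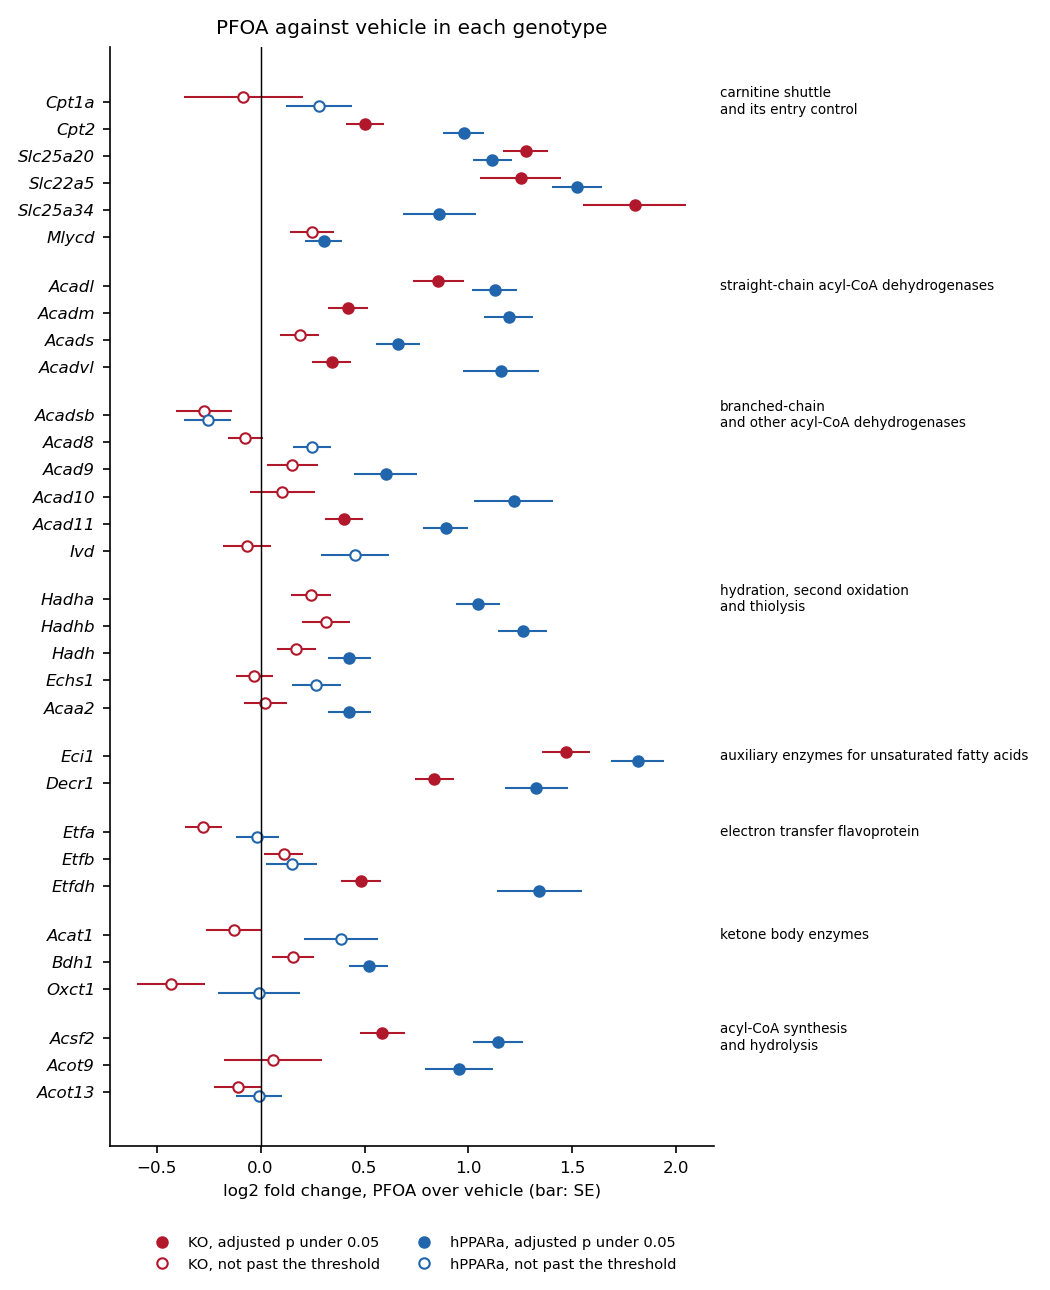
Log2 fold change with PFOA over vehicle (x axis, bars are SE) for the 32 tested genes, in KO (red) and hPPARa (blue) livers, grouped by role. Filled points passed an adjusted p of 0.05 in edgeR: 12 genes in KO and 22 genes in hPPARa, all to the right of 0.

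The effects of PFOA in the genotypes do not share libraries. Across the 32 genes they were related, with Pearson's r of 0.735 and Spearman's rho of 0.803. The genes are not independent replicates, and they share the libraries of each genotype. The effect was smaller in KO than in hPPARa for 30 of the 32 genes.

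Tested as a difference between the genotypes, 3 genes passed the threshold, all with a smaller rise in KO, where 0.727% of all 15811 genes tested were called lower and 0.443% higher. They were Hadha, at −0.81 ± 0.14 on the log2 scale (KO minus hPPARa; adjusted p = 0.00642), Hadhb, at −0.95 ± 0.17 (adjusted p = 0.00835), and Acadm, at −0.78 ± 0.15 (adjusted p = 0.0137), by edgeR. Without the 3 KO libraries the same genes passed, at −0.86, −1.04 and −0.90 (adjusted p = 0.0388, 0.0295 and 0.0479). In the male libraries alone the values were −0.77, −1.04 and −0.77, and none passed (adjusted p = 0.11, 0.0717 and 0.11). Acad10 had the lowest value, −1.12 ± 0.27, with an adjusted p of 0.0508 (edgeR), and it passed by DESeq2 (adjusted p = 0.00462) and without hPPARa male vehicle replicate 1, hPPARa male PFOA replicate 1, KO male vehicle replicate 2 or KO male PFOA replicate 1 (adjusted p = 0.00558 to 0.0279). Another 16 genes had an unadjusted p under 0.05 without passing, and DESeq2 called 10 genes, all with a smaller rise in KO. On simulated data the edgeR test of this difference recovered 15.9% of 1.5-fold and 67.1% of 2-fold changes.

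**Figure D4:**
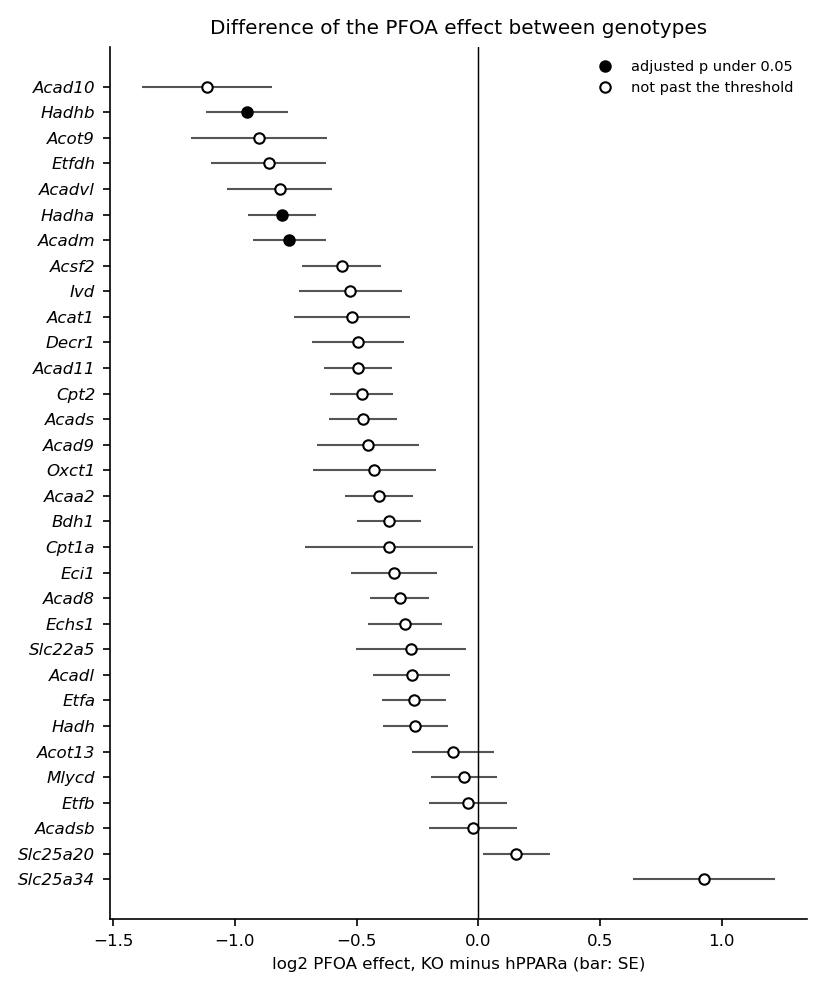
Difference of the log2 PFOA effect, KO minus hPPARa (x axis, bars are SE), for the 32 tested genes in order of size. Filled points passed an adjusted p of 0.05 in edgeR: Hadhb, Hadha and Acadm. Slc25a20 and Slc25a34, at the foot, lie to the right of 0.

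The sequences before the annotated starts are shown for the genes whose PFOA effect differed between genotypes (Hadhb with its neighbour Hadha, and Acadm) and for the carriers whose fold change was higher in KO, without passing the test of the difference (Slc25a34 and Slc25a20). Hadha and Hadhb are read in opposite directions from starts 273 bases apart, so that 1 window serves both. The sequences are RefSeq's for GRCm38.p6, 250 bases each, 5′ to 3′ on the strand of the named gene, whereas the counts were made on GRCm39. Hadhb lies at chr5:30155003-30155252 on the plus strand, and its capitals mark the stretch that also lies in the window of Hadha, on the minus strand at chr5:30154981-30155230. Acadm lies at chr3:153944644-153944893 and Slc25a34 at chr4:141623835-141624084, both on the minus strand, and their capitals mark the 1 match to AGGTCA, here on the opposite strand. Slc25a20 lies at chr9:108661886-108662135 on the plus strand and holds no match.
Hadhb: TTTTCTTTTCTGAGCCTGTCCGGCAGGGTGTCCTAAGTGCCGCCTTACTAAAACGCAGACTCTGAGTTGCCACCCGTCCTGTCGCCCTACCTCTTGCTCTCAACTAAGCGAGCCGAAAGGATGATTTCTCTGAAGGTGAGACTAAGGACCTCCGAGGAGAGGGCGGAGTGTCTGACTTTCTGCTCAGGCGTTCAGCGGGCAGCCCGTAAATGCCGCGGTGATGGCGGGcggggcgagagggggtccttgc
Acadm: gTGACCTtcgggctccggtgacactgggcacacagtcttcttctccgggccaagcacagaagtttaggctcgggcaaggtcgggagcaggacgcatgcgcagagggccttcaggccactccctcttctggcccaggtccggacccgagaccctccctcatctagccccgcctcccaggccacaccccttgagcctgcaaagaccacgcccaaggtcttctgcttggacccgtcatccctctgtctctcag
Slc25a34: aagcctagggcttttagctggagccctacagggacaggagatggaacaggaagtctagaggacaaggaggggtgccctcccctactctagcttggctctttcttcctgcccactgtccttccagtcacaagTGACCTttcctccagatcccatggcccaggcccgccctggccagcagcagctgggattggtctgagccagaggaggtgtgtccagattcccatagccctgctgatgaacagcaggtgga
Slc25a20: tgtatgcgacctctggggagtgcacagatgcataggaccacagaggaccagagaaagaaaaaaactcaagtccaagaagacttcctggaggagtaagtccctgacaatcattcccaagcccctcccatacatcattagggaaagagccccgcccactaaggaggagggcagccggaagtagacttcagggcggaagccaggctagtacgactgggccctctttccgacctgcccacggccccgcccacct

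PPARα is known to bind, with its partner RXR, a direct repeat of AGGTCA spaced by 1 base. Over windows from 250 bases before to 50 bases after the start, RefSeq's table held 28 promoters for 27 of the 33 genes and 32851 promoters in all. On both strands, 0 of the 28 held that repeat with any base between the copies, and 0 held the looser form with AGGNCA copies, which includes it, against 0.0396% and 0.381% of all promoters. The element of estrogen-related receptors, TCA followed directly by AGGTCA, was also in 0 of the 28, against 0.423% of all. At shares this low a count of 0 in 28 is likely for any set of promoters, so it says nothing of these genes. A lone AGGTCA was in 5 of the 28 (17.9%; Cpt1a, Slc25a34, Acadm, Acadvl and Echs1), against 16.3% of all. These letters describe the windows alone. The 28 promoters were rich in CpG, with a median of 17 CpG and 60.5% G and C, where all promoters had medians of 7 and 52.7%.

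On vehicle, the genes that were lower in KO than in hPPARa livers were mostly carriers of the carnitine shuttle and first-step dehydrogenases. Of the 32 genes, 10 were lower and 0 higher by edgeR, where 1.76% of all genes were called lower and 2% higher (15811 tested). The median log2 difference was −0.29. They were 5 of the 6 tested genes of the carnitine shuttle (Cpt2, Slc25a20, Slc22a5, Slc25a34 and Mlycd), 3 straight-chain dehydrogenases (Acadl, Acads and Acadvl), Eci1 and Etfb. The lowest was Slc25a34, at −2.37 ± 0.23 (adjusted p = 3.08e-06) on 7 to 28 counts per KO library, followed by Slc25a20, at −1.79 ± 0.11 (adjusted p = 1.95e-09), by edgeR. Cpt2 had −1.08 ± 0.10 (adjusted p = 1.56e-06) and Eci1 −1.13 ± 0.14 (adjusted p = 5.99e-05, edgeR). Hadha, at 0.00 ± 0.10, and Acadm, at −0.04 ± 0.11, did not pass (adjusted p = 0.997 and 0.882), with intervals of −0.20 to 0.20 and −0.26 to 0.18. Without the 3 KO libraries 6 genes passed, all lower, and the calls of Acadl, Acads, Acadvl and Mlycd were lost (adjusted p = 0.0576, 0.193, 0.0567 and 0.141). Single libraries also decided calls. That of Acads was lost without any 1 of 8 libraries (adjusted p = 0.0508 to 0.114). The call of Mlycd was lost without hPPARa male vehicle replicate 1 or KO female vehicle replicate 1 (adjusted p = 0.0529 and 0.0709), and that of Slc22a5 without hPPARa male vehicle replicate 1 or any 1 KO male vehicle library (adjusted p = 0.0505 to 0.0512). Alternatives also added calls, in both directions. DESeq2 called Acad10, Ivd and Bdh1 higher in KO (0.63, 0.53 and 0.33, adjusted p = 0.0380, 0.0311 and 0.00977). It called Hadh and Decr1 lower (−0.35 and −0.45, adjusted p = 0.00823 and 0.0380). The KO libraries lay wholly below the hPPARa libraries for 10 of the 32 genes and wholly above for 1, Ivd, against 3.48% and 2.95% of all genes.

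On PFOA, 22 of the 32 genes were lower and 0 higher in KO than in hPPARa livers, where 7.79% of all genes were called lower and 7.13% higher, and the median log2 difference was −0.78. Every gene that was lower on vehicle was also lower on PFOA, joined by 12 others that did not pass on vehicle. The lowest were Acadvl, at −1.70 ± 0.14 (adjusted p = 9.17e-08), Slc25a20, at −1.63 ± 0.09 (adjusted p = 7.33e-11), Cpt2, at −1.55 ± 0.09 (adjusted p = 7.33e-11), and Eci1, at −1.48 ± 0.12 (adjusted p = 1.45e-08), by edgeR. Hadhb had −1.31 ± 0.11 (adjusted p = 3.33e-08) and Hadha −0.81 ± 0.09 (adjusted p = 2.75e-06). All 3 genes of the electron transfer flavoprotein were lower, from −0.47 for Etfa to −1.34 for Etfdh. In males alone Acot9 did not pass (−0.54, adjusted p = 0.19). Acat1, at −0.94 ± 0.15 (adjusted p = 2.63e-04, edgeR), was the only ketone body enzyme of the 3 to pass. For all 22 genes the KO and hPPARa libraries did not overlap, where 4.96% of all genes were lower and 3.78% higher with no overlap. With the 3 KO libraries left out, 22 genes passed, all lower.

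**Figure D5:**
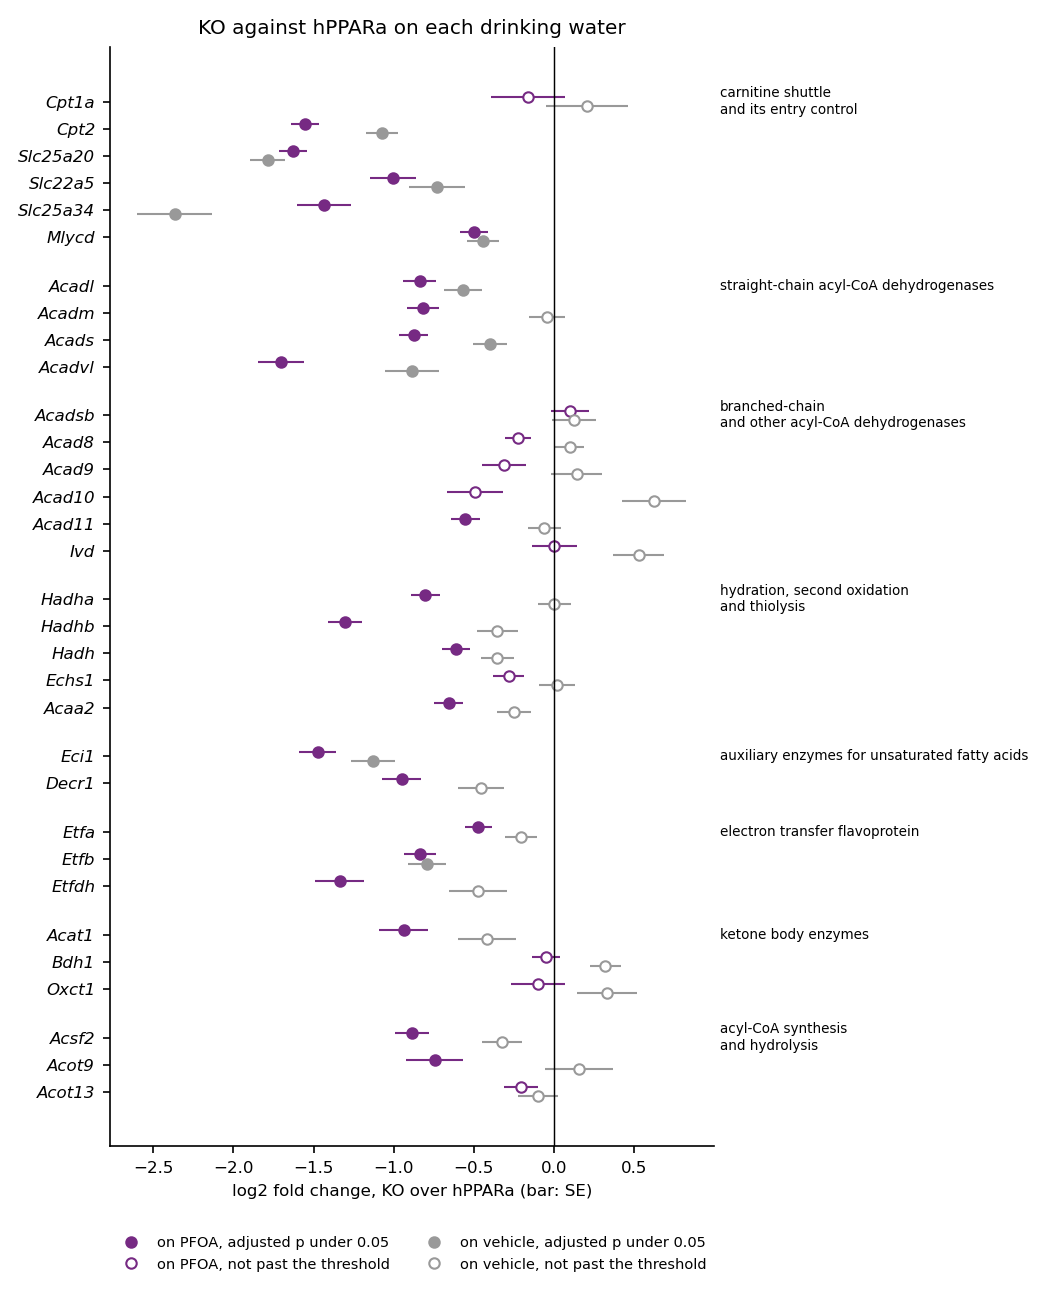
Log2 fold change of KO over hPPARa (x axis, bars are SE) for the 32 tested genes, on PFOA (purple) and on vehicle (grey), grouped by role. Filled points passed an adjusted p of 0.05 in edgeR: 22 genes on PFOA and 10 genes on vehicle, all to the left of 0.

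Levels in KO livers on PFOA can be set beside those of hPPARa livers on vehicle as a description, with no test. Of the 32 genes, 3 had every KO library on PFOA below every hPPARa library on vehicle (Cpt2, Slc25a20 and Etfa), 4 had every KO library above (Slc22a5, Acadm, Ivd and Bdh1), and 25 overlapped. Acadvl overlapped narrowly, at 53.1 to 66.5 CPM in KO on PFOA and 65.9 to 100 CPM in hPPARa on vehicle.

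Within each sex, most called genes were higher on PFOA. With PFOA, 10 genes rose and 2 fell in KO males, where 5.63% of all genes were called higher and 3.46% lower. In hPPARa males 17 rose and 1 fell, where 5.3% were called higher and 2.9% lower. In hPPARa females 21 rose and 0 fell, where 10.5% were called higher and 7.87% lower. The genes that fell were Acadsb in males of both genotypes and Etfa, by 0.37, in KO males (adjusted p = 0.0314, edgeR), a call lost without any 1 of the 6 KO male libraries (adjusted p = 0.0606 to 0.123). The PFOA effect of 0 genes differed between hPPARa males and females by edgeR (0.0417% of all genes called higher in males and 0.0625% lower) or DESeq2, and 5 had an unadjusted p under 0.05. Of these Acadvl and Ivd had a smaller effect in males, at −0.84 ± 0.27 and −0.81 ± 0.24 (male minus female; adjusted p = 0.315 and 0.283, edgeR). With no filter on low counts edgeR called both (adjusted p = 0.00424 and 0.00685). On simulated data the test of the difference between the sexes recovered 4.23% of 1.5-fold and 35.4% of 2-fold changes. That test could therefore miss most differences of such size. KO females had 1 vehicle library, and their effect was not tested on its own.

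Another 30 genes of fatty acid oxidation and ketogenesis, outside the 33, gave a frame for these values. With PFOA, 9 rose and 1 fell among 30 tested in KO livers, and 16 rose and 2 fell among 29 tested in hPPARa livers. Of all genes, 7.41% were called higher and 6.36% lower in KO, and 12.8% higher and 9.76% lower in hPPARa. Acot2, a mitochondrial thioesterase, had a log2 fold change of 1.69 ± 0.28 in KO and 3.38 ± 0.26 in hPPARa. Crat, carnitine acetyltransferase, had 0.95 ± 0.13 in KO and 1.99 ± 0.24 in hPPARa, and Eci2, a relative of Eci1, had 1.16 ± 0.13 in KO and 1.10 ± 0.11 in hPPARa, all past the threshold.

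Pdk4, the kinase that spares pyruvate when fatty acids are burnt, had 4.06 to 10.6 CPM with a median of 6.72 CPM in KO livers on PFOA, against 3.87, 4.12, 13.6 and 14.7 CPM on vehicle. In hPPARa livers Pdk4 had 13.9, 14.7, 18.2, 29.5 and 51.0 CPM on PFOA, against 3.42, 3.47, 3.90, 4.68 and 4.98 CPM on vehicle. Its PFOA effect differed between genotypes by −2.93 ± 0.62 (adjusted p = 0.0369, edgeR), as did those of Acsf3 by −0.70 ± 0.11 (adjusted p = 0.00336) and Acacb by −1.14 ± 0.26 (adjusted p = 0.0402). The spread of Pdk4 among KO vehicle libraries was wider than the range of KO libraries on PFOA. The KO vehicle library at 14.7 CPM was the lone female, 1 of the 3 libraries with transcripts of the other sex. The differences of Pdk4, Acsf3 and Acacb are given with all libraries only.

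Other groups of mitochondrial genes can be read against the same shares of all genes, 7.41% higher and 6.36% lower in KO and 12.8% higher and 9.76% lower in hPPARa. Of 22 subunits of the respiratory chain encoded in the nucleus, 0 rose and 4 fell with PFOA in KO livers, and 4 rose and 0 fell in hPPARa livers, with median log2 fold changes of −0.15 and 0.01. Of 17 genes of the TCA cycle, 1 rose and 2 fell in KO, and 7 rose and 1 fell in hPPARa. On PFOA, 13 of the 22 respiratory subunits were lower in KO than in hPPARa livers, with a median difference of −0.29, where 7.79% of all genes were called lower. Of 15 genes of mitochondrial import, channels and DNA maintenance, 1 rose in KO and 4 rose in hPPARa with 0 falling in either. Of 13 genes of mitochondrial DNA, only 7 had enough counts to be tested, so the counts of this group are uncertain. The 7 tested genes had medians of −0.32 in KO and −0.40 in hPPARa, with 2 called lower in each. In hPPARa females all 7 were called lower (median −0.78) and in hPPARa males 0 (median −0.02), while the difference between the sexes passed for 0 of the 7 by edgeR (median 0.76, male minus female). Of all genes, 7.87% were called lower in hPPARa females and 2.9% in hPPARa males.

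Markers of other cells moved with some of these groups, and their part in the values was not tested. The summed level of 10 hepatocyte markers ran from 75145 to 96353 CPM on PFOA and from 97972 to 115767 CPM on vehicle in KO livers, and from 89274 to 129410 CPM on PFOA and from 118901 to 214365 CPM on vehicle in hPPARa livers. Of the 10, 0 rose and 2 fell with PFOA in KO livers, and 0 rose and 6 fell in hPPARa livers. Among all genes tested, 7.41% were called higher and 6.36% lower with PFOA in KO, and 12.8% higher and 9.76% lower in hPPARa. Between the genotypes on PFOA, 7.13% were called higher and 7.79% lower in KO. The 6 neutrophil markers summed to 88.5 to 325 CPM in KO livers on PFOA, with 1 of the 6 at 0 in every such library, and to 0.378 to 1.55 CPM on vehicle, and to 3.34 to 9.09 CPM on PFOA and 0.604 to 1.24 CPM on vehicle in hPPARa livers. Only S100a8 and S100a9 of these had enough counts to be tested. S100a8, with a mean of 52.5 CPM over all libraries, carried the sum and rose in both genotypes, whereas S100a9, at 0.657 CPM, passed in neither. The 6 cholangiocyte markers summed to 15.8 to 46.7 CPM on PFOA and 50.7 to 194 CPM on vehicle in KO livers, against 16.2 to 45.8 CPM on PFOA and 30.9 to 38.4 CPM on vehicle in hPPARa livers. All 6 fell with PFOA in KO livers and 0 passed in hPPARa livers. Markers of striated muscle stayed at or below 9.43 CPM in sum and those of adipocytes at or below 3.47 CPM. Of 8 macrophage markers, 3 rose and 0 fell with PFOA in KO livers, 0 rose and 3 fell in hPPARa livers, and 6 were higher in KO than in hPPARa livers on PFOA. They summed to 206 to 340 CPM on PFOA and 111 to 231 CPM on vehicle in KO livers, and to 98.8 to 279 CPM on PFOA and 115 to 334 CPM on vehicle in hPPARa livers. Of 8 endothelial markers, 2 rose and 0 fell in KO, and 5 rose and 0 fell in hPPARa, and 3 were lower in KO than in hPPARa livers on PFOA. They summed to 232 to 290 CPM on PFOA and 203 to 299.7 CPM on vehicle in KO livers, and to 278 to 367 CPM on PFOA and 268 to 335 CPM on vehicle in hPPARa livers. Of 8 stellate and fibroblast markers 2 fell in each genotype, and 0 of the tested lymphocyte markers passed in either; these lists summed to 214 to 438 and 2.03 to 8.52 CPM over all libraries.

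Levels were also compared between genes, per kilobase of exon in GENCODE M21, an annotation of an earlier build than that of the counts. In hPPARa livers on PFOA, the thiolase gene Acaa2 had the highest level, 669 ± 58.3 CPM per kilobase (SD, n = 5), followed by Acadl at 218 ± 12.6, Acadm at 191 ± 11.9 and Acat1 at 167 ± 23.1. Etfa had 117 ± 4.18 and Etfb 39.1 ± 5.54. Slc25a20 had 37.0 ± 1.79 against 108 ± 6.36 for Cpt2, and Slc22a5 had 15.6 ± 2.60. Oxct1, at 1.02 ± 0.27, and Cpt1b, at 0.10 ± 0.05, were the lowest, and the Cpt1b count is uncertain because a same-strand gene shares most of its exons.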

How the data were processed

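Per the labels' protocols, total RNA from bulk liver with an RNA integrity number above 7 was made into libraries and sequenced by BGI Americas. The authors deposited whole-number counts per gene symbol, 1 table for each genotype, with no normalization. The submitters' processing notes name the build GRCm39 and, with no roles, the tools STAR 2.5.3, featureCounts 1.6.1, FastQC 0.11.5, cutadapt 1.15, edgeR 3.36.0 and R 4.1.0. They name no annotation release and no strand setting. The deposited PFOA unit, written as µm, was read as micromolar.

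Tests used the robust quasi-likelihood method of edgeR 4.0.16 (R 4.3.3) on those counts. TMM factors ran from 0.895 to 1.08, genes with low counts were removed by filterByExpr over the groups, of which the smallest in KO has 1 library, and p-values were adjusted by Benjamini-Hochberg over all genes tested, with 0.05 as threshold. PFOA against vehicle was fitted within each genotype with exposure and sex, effects within a sex with 4 groups, and differences between genotypes with all 20 libraries in 1 model. Each SE is a log2 fold change over the root of its F value. CPM are from the deposited counts and TMM factors. Limits of 95% on log2 fold changes use the SE and a normal quantile, so with so few libraries they are likely too narrow. Libraries were called non-overlapping when the lowest of one set exceeded the highest of the other. The tests were checked on simulated data. Libraries of 1 group differed by a chi-square of 7.31 to 41.8 per gene, where counting noise gives about 1, and each counted as a sample.

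The 33 genes and all lists were chosen with earlier results of these data known. Values by library are given, in each of the 5 main comparisons, for the 4 called genes with the smallest adjusted p, the called gene with the lowest fold change and every gene whose PFOA effect differed between genotypes. From other lists up to 4 called genes with the smallest adjusted p and a mean of at least 1 CPM may be named, with Pdk4 and Ppara always. Some genes this rule names are not reported here. Cpt1a, Bdh1 and Acadl ranges were added after their values were seen. Alternatives were DESeq2 1.42.0, relative log expression factors, other filters, each library left out, replicate number as a term, equal weight of the sexes, all libraries in 1 fit, males only, and leaving out the 3 KO libraries.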

Additional observations from a re-analysis of the deposited data

Results flagged for a closer look

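The PFOA effect on 3 genes differed between the genotypes by a test of the difference itself (edgeR's quasi-likelihood test over 15811 genes). On the log2 scale, KO minus hPPARa, the difference was −0.81 for Hadha, −0.95 for Hadhb and −0.78 for Acadm. Hadha and Hadhb encode the subunits of the trifunctional protein and share the sequence between their starts, and Acadm is the medium-chain dehydrogenase. Hadhb was counted far below Hadha, so its count is uncertain. With no group of more than 3 libraries, no library was tested as an outlier within its group.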

How the results depend on the processing

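Among the values of single genes under the alternatives, 5417 kept their side of the threshold, 136 lost and 111 gained a call, and 0 called values changed sign. All alternatives kept the call of 7 of the 12 genes that rose with PFOA in KO, 20 of 22 in hPPARa, 0 of 3 for PFOA by genotype, 4 of 10 that were lower in KO on vehicle and 21 of 22 on PFOA. Acadm, Hadha and Hadhb lost their call by genotype in males only. The KO vehicle females, at 1 library, limit PFOA in KO, PFOA by genotype and KO on vehicle. DESeq2 called 421 genes in all for PFOA by genotype, 920 for KO on vehicle and 138 for PFOA by sex (57.2% higher, against 40.0% of 15 by edgeR), and 10 of the 32 for PFOA by genotype. With no filter these counts were 545, 1013, 323 and 9, and 2 of the 32 for PFOA by sex (53.3% of all its calls higher). Without the 3 KO libraries 630 genes were called for PFOA in KO and in KO males, 39 for PFOA by genotype and 195 for KO on vehicle; among the 32, 7 for PFOA in KO and in KO males and 6 for KO on vehicle. With males only, 26, 87 and 1039 genes were called for PFOA by genotype, KO on vehicle and KO on PFOA, with 0 and 6 of the 32 in the first and second.

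Leaving out 1 library at a time gave 1401 to 2129 genes for PFOA in KO, 1905 to 3889 in hPPARa, 635 to 1503 in KO males, 468 to 1320 in hPPARa males, 796 to 3242 in hPPARa females, 67 to 239 for PFOA by genotype, 351 to 701 for KO on vehicle, 1638 to 2498 for KO on PFOA and 4 to 27 for PFOA by sex. Among the 32, the counts were 11 to 13, 20 to 25, 7 to 15, 11 to 19, 16 to 23, 3 to 8, 8 to 12, 22 to 26 and 0 to 0. The lowest counts among the 32 came without KO male vehicle 1, KO male PFOA 1 or KO male PFOA 3 (7 in KO males) and hPPARa male vehicle 2 (11 in hPPARa males), and the highest for PFOA by genotype, 8, without hPPARa male PFOA 1. The lowest counts over all genes came without hPPARa female PFOA 1 (1905 in hPPARa, 67 for PFOA by genotype), KO male PFOA 2 (1401 in KO) and KO female vehicle 1 (351 for KO on vehicle). A lone library left in a group was assumed to vary like the other groups. The causes were not tested.

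Replicate numbers showed no clear pairing of libraries. Deviations from group means of same-numbered libraries in different groups correlated at −0.137 to 0.037 in KO and −0.075 to 0.134 in hPPARa. Those of differently numbered libraries correlated at −0.161 to 0.212 in KO and −0.134 to 0.129 in hPPARa. In a group of 2 libraries the deviations mirror each other, so the check is weak. With the replicate block, 11 of the 32 genes were called for PFOA in KO, 22 in hPPARa, 3 for PFOA by genotype, 10 for KO on vehicle and 22 for KO on PFOA.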
